A study of Mus musculus with 9 samples.

Results

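The S100 proteins are small calcium-binding proteins, and their genes were followed in TEC, the epithelial cells of the thymus on which T cells mature and are selected. The set was chosen by gene symbol and held 10 members, S100a11, S100a10, S100a6, S100a4, S100a14, S100a16, S100a1, S100a13, S100a8 and S100a9, and all 10 were among the 15080 genes of the count table. They were picked with results of the comparison of rAREG with vehicle already known, S100a11 being among the genes called there, so every difference between the groups given below for a member is a description of these libraries and is not offered as a test. A further 8 S100 genes in the table were not among the members.

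TEC had been sorted from enzymatically dissociated thymi of young male wild-type (WT) mice. One group had received 1 µg of rAREG, the recombinant form of the EGF receptor ligand amphiregulin, injected into the thymus 10 days before collection, and was sequenced as 5 libraries. The other mice, also WT and matched in age, had received the PBS vehicle and gave 4 libraries. The libraries were made by bulk MARS-seq, which reads the 3′ end of each RNA and counts molecules by unique molecular identifiers (UMIs), and held 1523246 to 2159115 UMIs each. Levels are given as UMI counts per 1000000 (CPM) of the library. Because 1 molecule gives 1 count whatever the length of its RNA, CPM is set side by side between genes without a length correction. Differences between genes in how reads were captured or assigned were not measured, so orders of genes by level are approximate. The labels do not tie libraries to separate mice, so the p-values measure the spread between libraries, and that spread may be technical in part. Of 20 TEC markers 19 were in the table and all 19 could be tested, with sums of 10700 to 11680 CPM in rAREG libraries and 10240 to 10710 CPM in vehicle libraries; 2 rose, Aire and Fezf2, which drive the display of tissue antigens, and none fell. None passed with library size as a covariate, with vehicle replicates 1 and 2 both left out, or without any 1 library other than rAREG replicate 3 or vehicle replicate 4. Summed markers of other cell types were lower. Of 14 thymocyte markers 10 were in the table, summing to 65.9 to 133 CPM in rAREG and 62.5 to 120 CPM in vehicle. Cd3e, Rag2, Trbc1 and Trbc2 were not among the genes analysed here. The 7 endothelial markers summed to 56.5 to 103 CPM in rAREG and 75.1 to 93.1 CPM in vehicle. Of each list 5 could be tested, and none of these passed in edgeR (none at an unadjusted p under 0.05), DESeq2 or limma voom. In a bulk sample fewer cells of a type and less RNA per cell cannot be told apart.

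S100 proteins form dimers whose shape changes when calcium binds to their paired EF-hand loops, which exposes a surface that grips target proteins. Inside the cell many of these targets are annexins and parts of the cytoskeleton. Outside the cell some members, above all the S100A8 and S100A9 pair known as calprotectin, act as alarm signals through the receptors RAGE and TLR4. Most family members lie in a single cluster next to the genes of the skin barrier, and epithelia, fibroblasts and myeloid cells each use a different selection of them.

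All 10 members lie on chromosome 3 (GRCm38, GENCODE M21 annotation), in 2 blocks. The first, from 90511034 to 90695721, spans 184.7 kb and holds 8 members in the order S100a1, S100a13, S100a14, S100a16, S100a4, S100a6, S100a8 and S100a9. The second begins 2.82 Mb further on and holds S100a11 (93520488 to 93526287) and S100a10 (93555080 to 93564643), whose starts lie 34592 bases apart. S100a1 and S100a13 are transcribed away from each other, and their GENCODE starts lie only 43 bases apart, so their promoters overlap. RefSeq promoter windows (GRCm38.p6, 250 bases before to 50 bases after each start) were found for 8 of the 10 members. S100a10 and S100a14 had none, so their promoters were not searched. Of the windows found, 4 are shown, those of S100a11, of S100a13 with the part shared with S100a1, and of the pair S100a8 and S100a9. In S100a11 the capitals mark the AP-1 motif TGANTCA, in S100a8 and S100a9 the TATA box motif TATAAA, and in S100a13 the 204 bases (90514281 to 90514484) that also lie in the window of S100a1. RefSeq places the S100a1 start elsewhere than GENCODE does, so these 204 bases hold for the RefSeq windows alone.
S100a11 (chr3:93520246-93520545, plus strand): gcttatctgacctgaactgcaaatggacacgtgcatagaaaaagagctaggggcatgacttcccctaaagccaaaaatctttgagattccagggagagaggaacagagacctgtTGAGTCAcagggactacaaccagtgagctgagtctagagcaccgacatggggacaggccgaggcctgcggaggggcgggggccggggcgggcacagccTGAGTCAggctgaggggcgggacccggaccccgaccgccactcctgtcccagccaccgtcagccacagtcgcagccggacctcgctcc
S100a13 (chr3:90514185-90514484, plus strand): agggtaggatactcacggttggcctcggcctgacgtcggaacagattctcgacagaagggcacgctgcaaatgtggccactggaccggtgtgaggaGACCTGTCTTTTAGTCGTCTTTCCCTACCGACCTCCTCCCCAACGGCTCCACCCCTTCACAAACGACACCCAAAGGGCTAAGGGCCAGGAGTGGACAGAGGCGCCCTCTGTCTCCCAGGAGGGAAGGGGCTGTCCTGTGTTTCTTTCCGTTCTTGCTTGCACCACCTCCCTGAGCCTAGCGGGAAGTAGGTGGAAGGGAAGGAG
S100a8 (chr3:90668821-90669120, plus strand): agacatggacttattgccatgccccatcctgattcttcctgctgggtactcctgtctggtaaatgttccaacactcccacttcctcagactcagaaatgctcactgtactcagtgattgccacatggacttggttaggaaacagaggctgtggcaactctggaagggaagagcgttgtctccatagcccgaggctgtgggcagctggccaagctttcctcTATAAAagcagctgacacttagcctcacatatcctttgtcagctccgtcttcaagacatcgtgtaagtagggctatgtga
S100a9 (chr3:90695672-90695971, minus strand): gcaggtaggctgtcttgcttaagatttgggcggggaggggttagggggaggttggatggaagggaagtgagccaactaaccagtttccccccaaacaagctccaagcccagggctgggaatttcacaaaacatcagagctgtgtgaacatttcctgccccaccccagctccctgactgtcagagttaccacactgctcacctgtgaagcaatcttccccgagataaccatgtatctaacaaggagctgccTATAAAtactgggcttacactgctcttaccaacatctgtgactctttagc
The AP-1 motif, read on both strands, occurred 2 times in the S100a11 window, beginning 136 and 38 bases before the start, and in 7.8% of all 32851 windows of this length. Among the other members with a window it occurred in a second start of S100a16 alone. TATAAA, also read on both strands, began 30 bases before the start in S100a8, at the annotated start in S100a9 and 31 bases before the start in S100a4, and was found in 13.6% of all windows. These are matches of letters and were not tested as binding sites.

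Together the members made up 0.480 ± 0.0109% of all UMIs in rAREG (SD, n = 5), against 0.492 ± 0.0372% in vehicle (SD, n = 4), so their joint share of the RNA was close to level while single members differed. In the fit across all 11636 genes tested with edgeR, 3 of the 10 had an adjusted p under 0.05, against 1.05% of all genes tested. S100a11 and S100a10 fell, where 0.49% of all genes did, and S100a14 rose, where 0.559% of all genes did. For the same 3 members the rAREG and vehicle libraries had separate ranges, against 4.92% of all genes tested, with 2.44% lower in rAREG and 2.48% higher. The median log2 fold change of the 10 was −0.19, with 7 of 10 negative, and that of all genes tested was −0.0054, with 5912 of 11636 negative. Since the members were chosen with this comparison known, nothing is read from these counts. An unadjusted p under 0.05 in edgeR, counted for the gene lists below, was met by 13.3% of all genes tested.

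**Figure D1:**
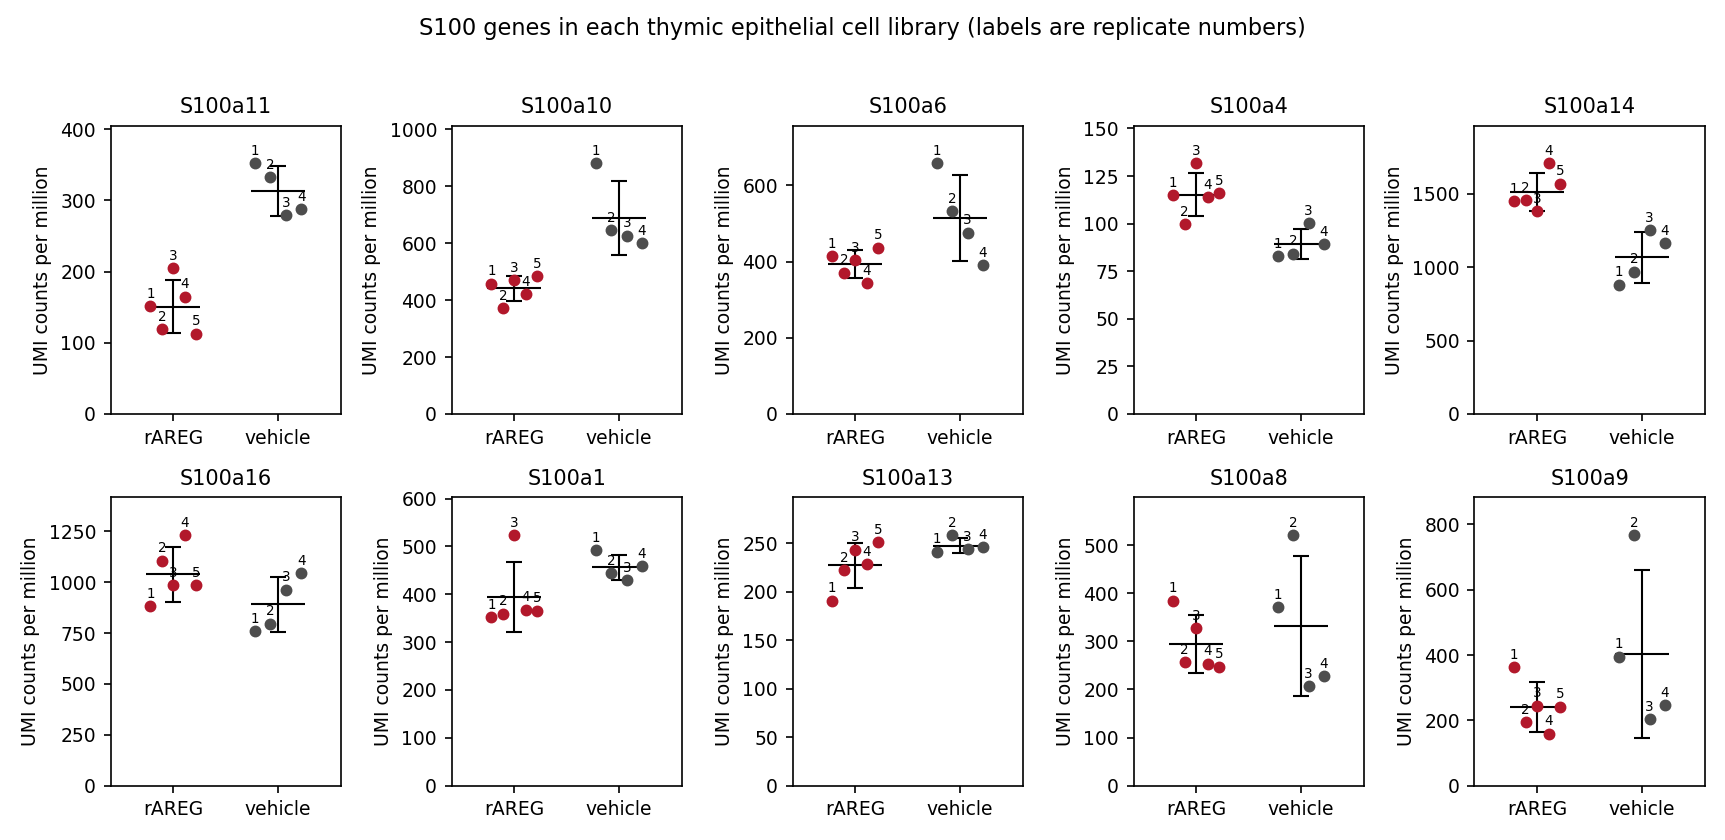
UMI counts per 1000000 (vertical axes, each from 0) of the 10 S100 genes in the 5 rAREG and 4 vehicle libraries. Points are libraries numbered by replicate, and the horizontal mark and whiskers are the mean and SD. S100a11 and S100a10 are lower in every rAREG library than in every vehicle library, S100a14 is higher in every one, and S100a8 and S100a9 are widest apart within vehicle.

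S100a11, S100a10 and S100a6 are the members best known as partners of annexins, proteins that bind membrane phospholipids when calcium rises. S100a11, which binds annexin A1 and helps to organise the cortical cytoskeleton, stood at 152, 119, 205, 165 and 113 CPM in rAREG replicates 1 to 5 and at 352, 333, 279 and 288 CPM in vehicle replicates 1 to 4. The highest rAREG library, replicate 3, lay below the lowest vehicle library, and the difference was −1.05 ± 0.150 in log2 (SE), a level 2.08-fold higher in vehicle. These values came from 214 to 442 UMIs per rAREG library and 513 to 700 per vehicle library. S100a11 was the only member under the threshold in each of the 9 fits that left out 1 library, with log2 fold changes from −1.18 to −0.96.

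S100a10, which pairs with annexin A2 at the plasma membrane and, unlike most of the family, has lost the ability to bind calcium, had 457, 373, 471, 422 and 485 CPM in rAREG replicates 1 to 5 and 881, 645, 627 and 599 CPM in vehicle replicates 1 to 4. All rAREG libraries lay below all vehicle libraries, and vehicle replicate 1 stood well above the other 3. The log2 fold change was −0.64 ± 0.120 (SE), or 1.56-fold higher in vehicle. It missed the threshold without vehicle replicate 1 (−0.50 in log2) and without rAREG replicate 2 (−0.58).

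S100a6, or calcyclin, known from proliferating epithelial cells and fibroblasts, ran at 415, 371, 403, 343 and 436 CPM in rAREG replicates 1 to 5 and at 658, 533, 476 and 390 CPM in vehicle replicates 1 to 4. Here the groups overlapped, since vehicle replicate 4 lay within the rAREG range. The log2 fold change of −0.39 ± 0.127 (SE) did not pass, although it did without vehicle replicate 4 (−0.49).

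Some markers of fibroblasts, cells in which these 3 members are also known to be used, stood high in some vehicle libraries, while others did not. The 10 fibroblast markers included Thy1, also a surface protein of thymocytes, at 58.7 CPM in rAREG and 48.3 CPM in vehicle. Together the 10 summed to 423, 301, 333, 392 and 607 CPM in rAREG replicates 1 to 5 and to 935, 851, 426 and 335 CPM in vehicle replicates 1 to 4, so vehicle replicates 1 and 2 stood apart. Of the 6 markers tested none passed in edgeR. Among them 3 had a positive log2 fold change and 3 a negative one, with a median of 0.018. The 1 marker at an unadjusted p under 0.05, Pdgfrb, was higher in rAREG (log2 fold change 0.728 ± 0.304, SE). The most abundant, Dcn, for the matrix proteoglycan decorin, was at 250 ± 79.8 CPM in rAREG (SD, n = 5), against 472 ± 237 CPM in vehicle (SD, n = 4). The fibroblast sum of vehicle replicate 3, at 426 CPM, was above that of every rAREG library but replicate 5, and vehicle replicate 4 lay among the rAREG libraries. With vehicle replicates 1 and 2 both left out, an alternative chosen after seeing the data, the log2 fold changes were −0.91 ± 0.188 for S100a11, −0.47 ± 0.131 for S100a10 and −0.13 ± 0.136 for S100a6 (SE). In that fit of 5 against 2 libraries none of the 10 members passed, and 3 of all genes did. The part of fibroblasts in the S100a11, S100a10 and S100a6 values was not tested.

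S100a4, a regulator of non-muscle myosin that marks motile mesenchymal and myeloid cells, was the least abundant member in both groups. It had 115, 99.7, 132, 114 and 116 CPM in rAREG replicates 1 to 5 and 83.0, 84.2, 100.3 and 89.2 CPM in vehicle replicates 1 to 4. Only rAREG replicate 2 and vehicle replicate 3 touched the range of the other group. The log2 fold change of 0.37 ± 0.110 (SE) did not pass in the main fit or in any alternative. In the annotation the exons of S100a4 share 302 bases with those of a predicted gene on the same strand, Gm42674, and the sources used here do not say how such reads were assigned. Markers of other cells that can use S100a4 differed by cell type. The fibroblast sums given above were higher in 2 vehicle libraries than in any rAREG library. The 8 dendritic cell markers in the table summed to 284 to 328 CPM in rAREG and 211 to 266 CPM in vehicle, with no overlap. These sums were mostly Fscn1, at 175 ± 19.1 CPM in rAREG (SD, n = 5), against 122 ± 27.2 CPM in vehicle (SD, n = 4). Ccr7 was at 45.0 and 29.0 CPM in rAREG and vehicle, and Batf3 at 18.1 and 13.7 CPM. Zbtb46 (7.32 and 6.98 CPM), Sirpa (10.3 and 10.0 CPM) and Cd83 (41.2 and 43.2 CPM) were closer to level. Itgax and Flt3 were too low to test. The 13 monocyte and macrophage markers summed to 484 to 675 CPM in rAREG and 408 to 584 CPM in vehicle, with overlap. Of the 6 dendritic markers tested 5 had a positive log2 fold change and 1 a negative one, with a median of 0.24. All 11 monocyte and macrophage markers tested were positive, as was S100a4, with a median of 0.27. Over all genes tested the median was −0.0054. None of these markers passed in edgeR (2 of each type at an unadjusted p under 0.05). DESeq2 and limma voom each called 1 dendritic marker and none of the others. The dendritic markers Xcr1, Clec9a, Siglech and Cd209a were not among the genes analysed here. The part of these cells in the S100a4 values was not tested.

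S100a14 and S100a16 are typical of epithelia, S100a14 of the stratified kind, and they were the most abundant members in both groups. S100a14 reached 1453, 1458, 1382, 1710 and 1571 CPM in rAREG replicates 1 to 5 and 882, 970, 1254 and 1165 CPM in vehicle replicates 1 to 4. Every rAREG library lay above every vehicle library, at a log2 fold change of 0.50 ± 0.115 (SE), or 1.42-fold. S100a14 held 31.5 ± 2.32% of the UMIs of the 10 members in rAREG (SD, n = 5), against 21.5 ± 4.50% in vehicle (SD, n = 4). Its place under the threshold was lost in 6 of the 9 fits without 1 library, namely without rAREG replicates 1, 2, 4 or 5 or vehicle replicates 1 or 2, with log2 fold changes from 0.42 to 0.60 over the 9. With vehicle replicates 1 and 2 both left out, the libraries with most fibroblast marker RNA, it was 0.33 ± 0.134 (SE) and did not pass.

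Its neighbour S100a16, whose start lies 10398 bases away, was at 882, 1107, 987, 1233 and 987 CPM in rAREG replicates 1 to 5 and 760, 797, 964 and 1044 CPM in vehicle replicates 1 to 4. The groups overlapped, and the log2 fold change of 0.22 ± 0.120 (SE) did not pass in the main fit or in any alternative. In both genes, vehicle replicates 1 and 2 were the lowest of all 9 libraries.

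S100a1, best known as a calcium regulator of heart and skeletal muscle, and S100a13, which takes part in the release of FGF1 from cells, start from the same stretch of DNA printed above. S100a1 was at 352, 359, 524, 368 and 366 CPM in rAREG replicates 1 to 5 and at 492, 445, 430 and 459 CPM in vehicle replicates 1 to 4. Of the rAREG libraries 4 lay below all vehicle libraries, while replicate 3 was the highest of all 9. S100a13 was at 191, 223, 244, 228 and 251 CPM in rAREG replicates 1 to 5 and at 242, 259, 244 and 246 CPM in vehicle replicates 1 to 4. Its vehicle libraries were the tightest of any member, with a coefficient of variation of 3.09%, and rAREG replicate 3, high in S100a1, was in mid-range here. The log2 fold changes, −0.21 ± 0.118 for S100a1 and −0.12 ± 0.100 for S100a13 (SE), did not pass in the main fit or in any alternative. The gene bodies of these 2 members do not overlap in the annotation.

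S100a8 and S100a9 encode the subunits of calprotectin, which neutrophils and monocytes hold in large amounts and inflamed epithelia also make. S100a8 was at 384, 256, 327, 253 and 248 CPM in rAREG replicates 1 to 5 and at 371, 521, 206 and 228 CPM in vehicle replicates 1 to 4. S100a9 was at 364, 194, 245, 159 and 242 CPM in rAREG replicates 1 to 5 and at 395, 768, 203 and 247 CPM in vehicle replicates 1 to 4. Both genes were highest in vehicle replicate 2, and vehicle replicate 1 and rAREG replicate 1 came next in both genes.

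**Figure D2:**
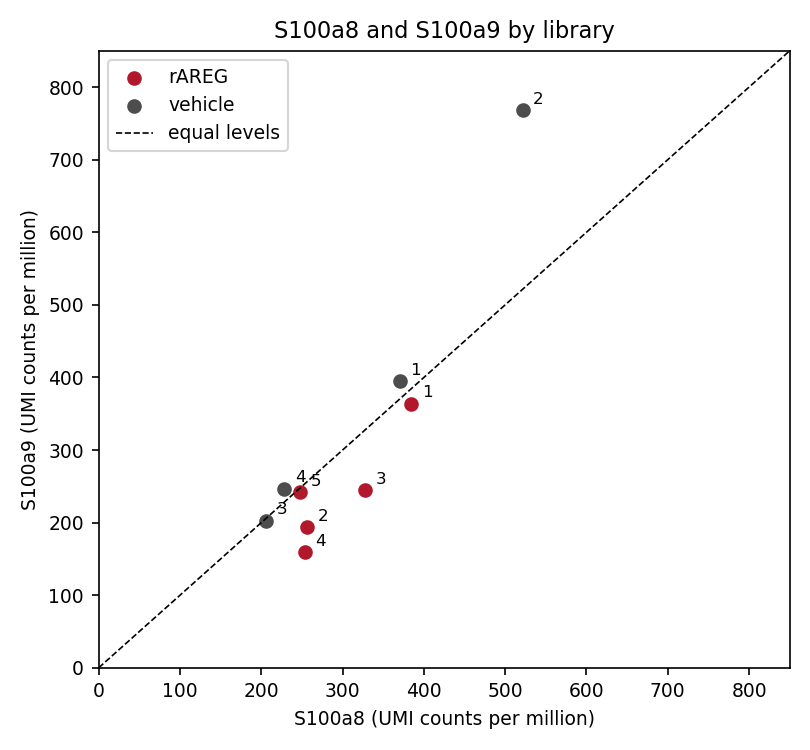
S100a9 (vertical axis) against S100a8 (horizontal axis), both in UMI counts per 1000000, 1 point per library numbered by replicate, with the dashed line at equal levels. All 5 rAREG libraries lie below the line. Vehicle replicate 2, at 521 CPM of S100a8 and 768 CPM of S100a9, is far from the rest.

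The pair had the widest spread within vehicle, with coefficients of variation of 44.0% for S100a8 and 63.7% for S100a9, where the median over all genes tested was 17.3%. In rAREG they were 20.5% and 32.2%, with a median over all genes of 17.5%. The log2 fold changes of −0.18 ± 0.293 for S100a8 and −0.75 ± 0.439 for S100a9 (SE) did not pass. Vehicle replicate 2 decided the sign for S100a8, which was at 0.13 without it, and with vehicle replicates 1 and 2 both left out S100a8 was at 0.44 and S100a9 at 0.10. The ratio of S100a9 to S100a8 was 0.946, 0.755, 0.748, 0.629 and 0.979 in rAREG replicates 1 to 5 and 1.07, 1.47, 0.984 and 1.08 in vehicle replicates 1 to 4, so the groups met but did not overlap. In each rAREG library S100a9 was thus the lower of the pair, and in 3 of 4 vehicle libraries the higher.

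Neutrophil markers differed among themselves in whether they were high where the pair was. The 15 in the table, which leave out S100a8 and S100a9, summed to 1346, 959, 1164, 1108 and 974 CPM in rAREG replicates 1 to 5 and to 923, 952, 1028 and 1093 CPM in vehicle replicates 1 to 4, so vehicle replicate 2 had one of the lower sums. These sums are mostly Hdc, Ltf, Lcn2 and Mmp9. Named after their values were seen, Retnlg, Csf3r, Cxcr2 and Mmp8 were each highest of all 9 libraries in vehicle replicate 2, at 62.8, 11.6, 4.40 and 7.16 CPM in that order. Retnlg was next highest in vehicle replicate 1, at 36.2 CPM. Csf3r, Cxcr2 and Mmp8 were too low to test, with 21, 8 and 13 UMIs in vehicle replicate 2, and Cxcr2 had 8 UMIs in vehicle replicate 1 as well. None of the other neutrophil markers in the table was highest in vehicle replicate 2, and Ltf was lowest of all 9 libraries there, at 100 CPM. Of the 9 tested, 1 rose, Ly6g, a surface protein of neutrophils, at 34.3 ± 5.33 CPM in rAREG (SD, n = 5), against 14.2 ± 4.88 CPM in vehicle (SD, n = 4; adjusted p = 0.0088 in edgeR). None fell, while DESeq2 and limma voom each called 2. With vehicle replicates 1 and 2 both left out none passed. The neutrophil markers Elane and Ctsg were not among the genes analysed here. The part of myeloid cells in the S100a8 and S100a9 values was not tested.

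**Figure D3:**
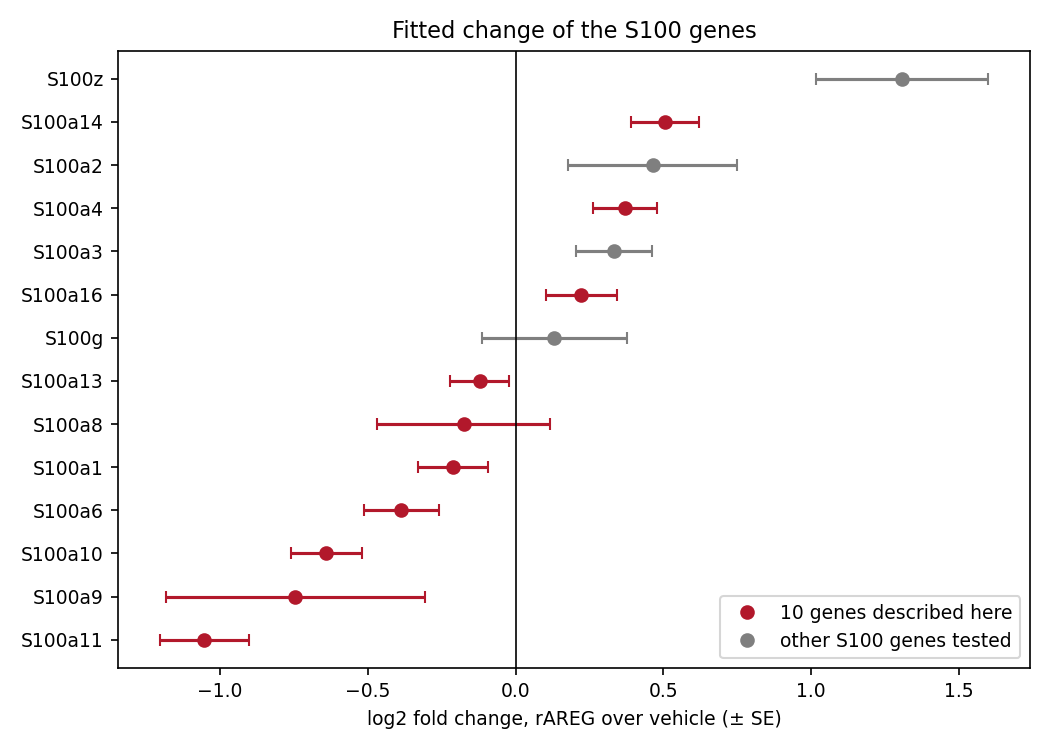
Fitted log2 fold change of rAREG over vehicle (horizontal axis) with its standard error for the 10 members (red) and the 4 other S100 genes that could be tested (grey). The members run from −1.05 for S100a11 to 0.50 for S100a14, and all 4 other genes are positive.

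The order of the members by mean level was headed by S100a14 and S100a16 and closed by S100a4 in both groups. In rAREG S100a14 at 1515 CPM was above S100a16 at 1039 CPM, and S100a16 above S100a10 at 442 CPM, with no overlap of libraries at either step. The next places, S100a1 at 394, S100a6 at 394, S100a8 at 294, S100a9 at 241 and S100a13 at 227 CPM, each overlapped with the place before. S100a11 at 151 CPM came ninth in rAREG, and S100a4 at 115 CPM last. In vehicle only the last steps were free of overlap, from S100a11 at 313 CPM to S100a13 at 248 CPM and from there to S100a4 at 89.2 CPM. Between S100a14 at 1068 CPM and S100a11, vehicle means ran over S100a16 (891), S100a10 (688), S100a6 (514), S100a1 (456), S100a9 (403) and S100a8 (332 CPM), each overlapping with the one before. S100a11 thus stood above S100a13 in all 4 vehicle libraries and below it in all 5 rAREG libraries.

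Of the 8 S100 genes outside the set, 4 had enough counts to be tested, S100a3, S100g, S100a2 and S100z, and 1 of these rose. S100z, which in GENCODE M21 lies away from the cluster on chromosome 13 (95477268 to 95478721), had 20, 30, 34, 36 and 32 UMIs in rAREG replicates 1 to 5 and 5, 18, 11 and 15 UMIs in vehicle replicates 1 to 4. As CPM this was 15.9 ± 1.98 CPM in rAREG (SD, n = 5), against 6.52 ± 3.30 CPM in vehicle (SD, n = 4), with no overlap (log2 fold change 1.31 ± 0.292, SE; adjusted p = 0.0335 in edgeR). The call was lost in 6 of the 9 fits without 1 library, without rAREG replicates 1, 2, 4 or 5 or vehicle replicates 1 or 3, with adjusted p up to 0.116 over these 9 fits. The keratinocyte and hair gene S100a3 was at 126 ± 18.0 CPM in rAREG (SD, n = 5), against 100.4 ± 17.0 CPM in vehicle (SD, n = 4), and S100a2, which lies inside the span of S100a3 on the same strand, at 14.4 ± 2.27 CPM in rAREG and 10.5 ± 5.33 CPM in vehicle. Exons of S100a3 share 144 bases with those of Gm42674. Neither passed, nor did S100g, the vitamin D-dependent calbindin of gut and placenta, at 107 ± 24.9 CPM in rAREG and 97.0 ± 31.9 CPM in vehicle. S100a5, S100a7a, S100a7l2 and S100b had 0 to 13 UMIs in every library, near or not far above the 3 UMIs, 1.39 to 1.94 CPM, that a count of 0 allows, and differences between the groups could not be tested at this depth.

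The annexins and other partners were read from lists made from general knowledge of the family. Of 12 annexins 11 were tested, Anxa11 not being analysed here. Of the 11, 10 had a negative log2 fold change, against 5912 of all 11636 genes tested. The median was −0.19 beside −0.0054 over all genes tested. None passed in edgeR (4 at an unadjusted p under 0.05, against 13.3% of all genes tested), DESeq2 called 1 and limma voom none. Anxa2, the membrane partner of S100A10, was at 637, 550, 727, 598 and 666 CPM in rAREG replicates 1 to 5 and at 835, 705, 863 and 854 CPM in vehicle replicates 1 to 4. Only rAREG replicate 3 and vehicle replicate 2 overlapped (log2 fold change −0.36 ± 0.106, SE; adjusted p = 0.108 in edgeR). Anxa1, the partner of S100A11, was at 734 ± 180 CPM in rAREG (SD, n = 5), against 960 ± 135 CPM in vehicle (SD, n = 4; edgeR, adjusted p = 0.28). The most abundant annexin, Anxa5, known as the probe for phosphatidylserine on dying cells, was at 1199 ± 116 CPM in rAREG and 1222 ± 127 CPM in vehicle (edgeR, adjusted p = 0.95).

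**Figure D4:**
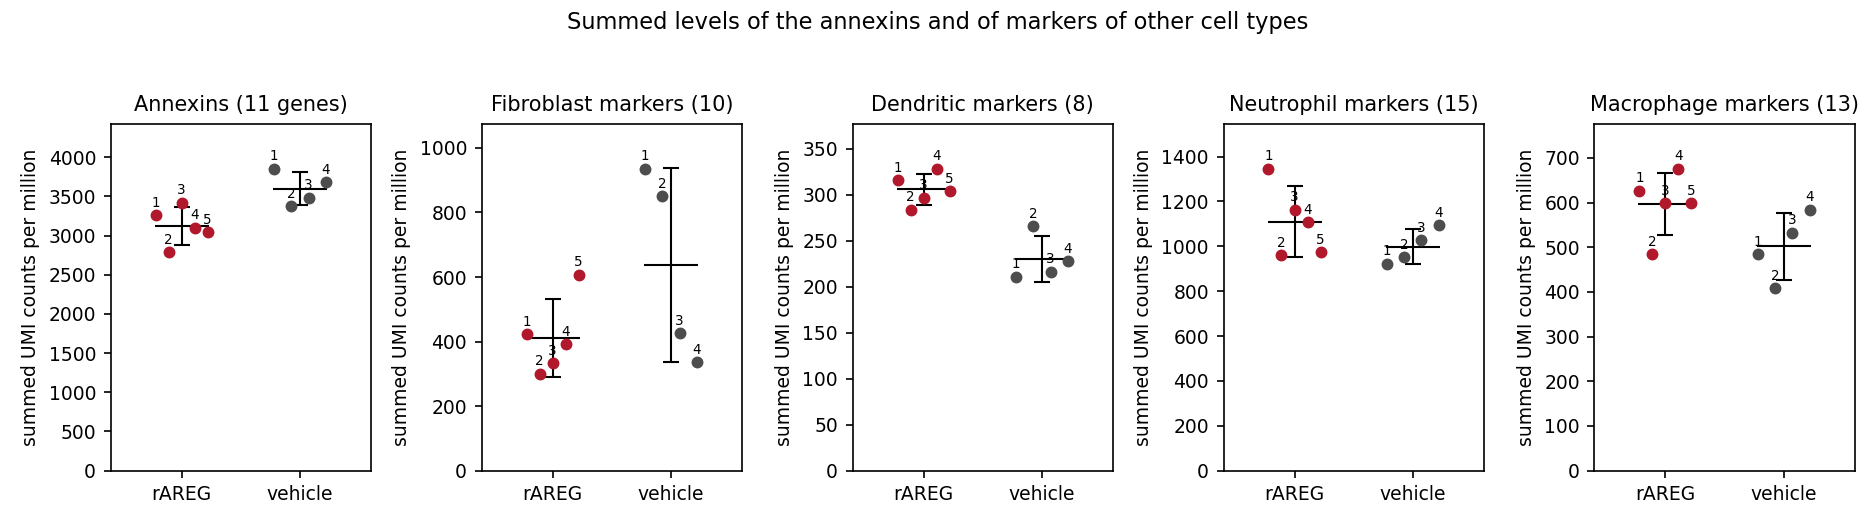
Summed UMI counts per 1000000 (vertical axes, each from 0) of the annexins and of markers of 4 other cell types, by library, with mean and SD. The dendritic sums, mostly Fscn1, do not overlap between rAREG and vehicle. The fibroblast sums, mostly Dcn, of vehicle replicates 1 and 2, at 935 and 851, stand above the other 7 libraries.

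Of 14 intracellular targets tested, none passed in edgeR (1 at an unadjusted p under 0.05) or limma voom, DESeq2 called 1, and the median log2 fold change was −0.015. The target of S100A4, the non-muscle myosin heavy chain Myh9, was at 186 ± 32.4 CPM in rAREG (SD, n = 5), against 169 ± 33.1 CPM in vehicle (SD, n = 4). Ahnak, the giant scaffold held at the membrane by the complex of S100A10 and annexin A2, was named after its values were seen. It was at 120, 88.6, 116, 79.3 and 112 CPM in rAREG replicates 1 to 5 and 206, 203, 150 and 111 CPM in vehicle replicates 1 to 4, overlapping only through vehicle replicate 4 (log2 fold change −0.70 ± 0.181, SE; edgeR, adjusted p = 0.092). Among 5 tested receptors none passed in edgeR, DESeq2 or limma voom, with none at an unadjusted p under 0.05. Bsg, for basigin, a receptor of S100A9, was at 438 ± 36.9 CPM in rAREG and 480 ± 56.6 CPM in vehicle, Ager, for RAGE, at 12.0 ± 4.39 CPM in rAREG and 12.7 ± 3.26 CPM in vehicle, and Tlr4 was too low to test.

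Other EF-hand proteins, which share the calcium-binding fold without belonging to the family, were split evenly. Of 34 tested, 17 were positive and 17 negative, and none passed in edgeR (7 at an unadjusted p under 0.05) or DESeq2, while limma voom called 1. Their median log2 fold change was 0.0057. The most abundant were Cib1 at 662 ± 135 CPM in rAREG (SD, n = 5), against 536 ± 84.1 CPM in vehicle (SD, n = 4), Calm2, for calmodulin, at 353 ± 35.8 CPM in rAREG and 433 ± 39.1 CPM in vehicle, and Capns1, the small calpain subunit, at 316 ± 14.2 CPM in rAREG and 381 ± 16.9 CPM in vehicle.

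Genes that lie around the members on chromosome 3 gave no called gene either. Of the 10 tested among the 5 protein-coding genes on either side of each member, some of them also cornified envelope genes, 6 were positive, and none passed in edgeR (2 at an unadjusted p under 0.05), DESeq2 or limma voom. The most abundant, Rptn, was at 153 ± 49.8 CPM in rAREG (SD, n = 5), against 138 ± 49.8 CPM in vehicle (SD, n = 4). Chtop was at 93.2 ± 14.4 CPM in rAREG and 90.2 ± 3.11 CPM in vehicle. Snapin, for a vesicle fusion protein, was at 74.2 ± 3.74 CPM in rAREG, against 60.9 ± 3.84 CPM in vehicle (edgeR, adjusted p = 0.24). The cornified envelope list held mostly skin barrier genes from between the 2 S100 blocks, but also Pglyrp4 and Smcp, which encode no envelope protein. Of its 24 tested genes 16 were positive, Pglyrp4 and Smcp among them, with a median of 0.25. None passed in edgeR (4 at an unadjusted p under 0.05, Pglyrp4 among them), DESeq2 or limma voom. The most abundant, Sprr1a, was at 699 ± 235 CPM in rAREG and 552 ± 62.5 CPM in vehicle (edgeR, adjusted p = 0.49).

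The 5 genes nearest to S100a11 in profile were found by the root mean square difference of log2 CPM over the 9 libraries, each gene centred on its own mean, among 6877 tested genes with at least 20 CPM. They were Adam28 (0.211), Gstp1 (0.238), Epc2 (0.265), Iigp1 (0.272) and Psenen (0.273), where the median over these genes was 0.622. Adam28, a membrane metalloprotease, was at 18.7, 14.2, 23.2, 17.3 and 14.8 CPM in rAREG replicates 1 to 5 and 37.2, 28.6, 33.4 and 24.7 CPM in vehicle replicates 1 to 4. As in S100a11, rAREG replicate 3 was the highest of its group, and the groups did not overlap. Gstp1, a glutathione transferase with a close paralog in Gstp2, is uncertain as a single gene. Among the members S100a10 was nearest to S100a11 (0.334), followed by S100a1 (0.457) and S100a6 (0.461), and S100a14 was farthest (0.867). These distances describe the 9 libraries, which also carry the difference between the groups.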

How the data were processed

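TEC RNA was profiled in 9 bulk MARS-seq libraries, and groups came from the sample titles. The authors deposited raw UMI counts per gene and library in the .raw columns, per the file headers, and only these were used; 18 further per-sample columns were left aside. Tools listed without roles in the submitters' processing notes are STAR 2.5.2b, HTSeq, cutadapt, bcl2fastq and DESeq2, and the build is mm10; no source used here states whether counting used strand. Counts were fitted in R 4.3.3 with edgeR 4.0.16 (TMM, filterByExpr, robust quasi-likelihood test, Benjamini-Hochberg over 11636 genes, threshold 0.05); 3444 genes were left out by the filter. CPM uses TMM-scaled sizes. Standard errors were taken as the size of the log2 fold change over √F. A count of 0 allows up to 3 counts, for counting error only.

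Members, lists and tests were chosen with earlier results of these data known. The naming rule took all members, other S100 rows, up to 5 called genes of each list or else its 3 most abundant, and the 5 nearest profiles to S100a11. Not every gene it allowed is named, and no monocyte or macrophage marker is. Genes named outside it include Ager, Tlr4, Ahnak, Pdgfrb, Pglyrp4, Smcp and several neutrophil and dendritic markers. On simulated counts over 11364 genes, with 200 changed, edgeR recovered 42% of 1.5-fold and 81% of 2-fold changes, and 8.02% of calls were false. Alternatives were DESeq2 1.42.0, limma 3.58.1 voom, 3 other scalings, 2 other filters, 2 blocks, library size as a covariate and leaving out libraries. Sequences are from RefSeq (GRCm38.p6). Library pairs of a group differed by at least 2.54 in chi-square per degree of freedom.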

Additional observations from a re-analysis of the deposited data

Results flagged for a closer look

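The levels of 2 genes, each in 1 library, stood far from the rest of their group, by the ratio of the gap to the group's whole range, among 30 checks of a gene in a group; chance alone gives about 1 in 20. S100a1 was at 524.1 CPM in rAREG replicate 3, while the other 4 rAREG libraries were at 352 to 368 CPM. S100a10 was at 881.1 CPM in vehicle replicate 1, while the other 3 vehicle libraries were at 599 to 645 CPM.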

How the results depend on the processing

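The number of genes called, 122 in the fit described, was 198 with DESeq2 and 308 with the title numbers as a replicate block, 18 to 230 without any 1 library, and 3 with vehicle replicates 1 and 2 both left out, an alternative chosen after seeing the data. It was lowest without vehicle replicate 1 (18) and rAREG replicate 2 (28), and also moved by over 1.5 times without vehicle replicates 2 and 4 (43 and 230) and rAREG replicates 1 and 4 (58 and 54). The number of members called, 3, was 1 to 4 without any 1 library and 0 with vehicle replicates 1 and 2 left out. It was 1 without vehicle replicate 1 or rAREG replicate 2, where S100a11 alone passed. All other scalings, filters and tools called the same 3 members, S100a11, S100a10 and S100a14; the replicate block by title number added S100a6, and that by library number changed no member's call. The labels pair no libraries by number, and the deviations of same-numbered libraries correlated at −0.028 to 0.169 by title number and at −0.04 to 0.076 by library number. Log2 fold changes turned in sign for S100a8 (0.4395), S100a9 (0.1011) and S100a2 (−0.0333) with vehicle replicates 1 and 2 left out. Without any 1 library they ran from −0.3394 to 0.1326 for S100a8, turning without vehicle replicate 2, and from −0.0567 to 0.2951 for S100g, turning without vehicle replicate 4. The cause was not tested. Changes near 1.5-fold are often missed at this depth.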
